A study of Mus musculus with 8 samples.

Results

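Keratins and cornified envelope genes were followed in mouse embryonic fibroblasts (MEFs) grown in culture dishes and as tumours in mice. The members were chosen by name: every gene whose symbol begins with Krt, Lce or Sprr followed by a number, together with Flg, Lor and Ivl. The array carried 69 of the 96 such genes of the RefSeq gene table, on 78 probes, out of 18217 named genes in all. Flg was among the 27 genes without a named probe. The simple keratins Krt7, Krt8, Krt18 and Krt19 are described apart from the other 65, which are called skin genes below although several of them belong to other stratified epithelia, hair or gut.

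RNA was measured on 8 arrays of 1 colour, 2 in each of 4 groups. The groups were wild-type (WT) MEFs in dishes, Keap1 null (Keap1-/-) MEFs in dishes, and tumours that either line formed after injection into nu/nu mice (allografts), from 10000000 WT or 3000000 Keap1 null cells and taken at 100 to 150 mm3. Both lines carry the letters TR in their names, which the labels do not spell out, and there was 1 line per genotype, so a difference between lines and an effect of Keap1 cannot be told apart. In allografts the number of injected cells differed with the line as well, and cannot be told apart from it either. The labels do not say whether arrays 1 and 2 of a group came from separate cultures or animals, so the p-values measure the spread between arrays, which may be technical. Array 1 of each group lay on slide 1 and array 2 on slide 2. The question put by this design is how the loss of Keap1, the protein that keeps the transcription factor NRF2 low, changes expression in culture and in a tumour.

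Keratins are the intermediate filaments of epithelia and assemble from pairs of a type I and a type II chain. Krt8 with Krt18 or Krt19 is the pair of simple epithelia, Krt5 with Krt14 that of the basal layer of stratified epithelia, and Krt1 with Krt10 that of the layers above it. In the outermost epidermis, involucrin (Ivl), loricrin (Lor), the small proline-rich proteins (Sprr) and the late cornified envelope proteins (Lce) are cross-linked beneath the membrane into the cornified envelope. Fibroblasts are not known for these stratified programmes, while simple keratins are often found at low levels in cultured mesenchymal cells. Keratin genes of the array lie on chromosome 11 (20 genes) and chromosome 15 (20 genes), and the Lce and Sprr genes, Lor and Ivl lie together on chromosome 3, in the epidermal differentiation complex.

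Levels are given as log2 intensity minus the 75th percentile of the array, so 0 is the level of that percentile. The lowest probe well above background lay between -7.25 and -6.42 on the 8 arrays, and levels near or under this are at the limit of detection. Levels of different probes are not comparable with each other, only differences are. Between 60.6% and 74.7% of the 41174 probes were well above background on an array. The 8 fibroblast markers (Col1a1, Col1a2, Col3a1, Pdgfra, Pdgfrb, Thy1, Dcn and Lum) were all above background on 6 arrays, and 7 of 8 on both WT dish arrays. The targeted gene read lower in the Keap1 null line, with Keap1 levels of 3.32 and 2.99 in dishes of the WT line against 2.37 and 2.22 in dishes of the Keap1 null line, and 2.85 and 2.46 in allografts of the former against 1.00 and 0.92 in allografts of the latter. Whether its probe lies within the deleted part was not tested. Tumour RNA mixes injected and host cells, and more cells of a type cannot be told apart from more RNA per cell.

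Of the 69 genes, 46 were tested, that is, had in at least 1 group a probe that both arrays showed well above background. Tested were 4 of 4 simple keratins, 3 of 3 basal keratins, 7 of 10 suprabasal keratins, 5 of 5 stress keratins, 6 of 15 hair keratins, 9 of 14 Lce genes, 8 of 13 Sprr genes, Lor and Ivl, and 2 of the 3 other keratins. For 7 genes no array gave a signal above background. Of the 78 probes, 28 were well above background on all 8 arrays. The 72 probes of skin genes gave 33 and 38 above background (WT) and 38 and 37 (Keap1 null) on the dish arrays, and 36 and 38 (WT) and 59 and 36 (Keap1 null) on the allograft arrays. Over all probes the shares above background were 60.6% and 64.4%, 64.3% and 64.5%, 71.6% and 74.7%, and 69.8% and 71.4% in that order.

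Array 1 of the Keap1 null allografts therefore stood above its partner in many skin genes. On it, 23 of the 72 skin gene probes lay more than 2 above array 2 on the log2 scale (31.9%), and 3 lay as far below. Over all non-control probes 0.357% lay more than 2 above (147 of 41156) and 415 lay as far below. Wide gaps between these 2 arrays were thus not confined to skin genes, and most ran the other way. The other groups had 1 such skin gene probe (WT dishes), 1 (Keap1 null dishes) and 0 (WT allografts), where 0.265%, 0.206% and 0.325% of all probes passed. The 23 probes covered 3 of 3 of the basal keratins, 4 of 12 suprabasal, 1 of 5 stress, 5 of 16 hair and 9 of 17 Lce probes, and Lor. No Sprr probe (0 of 14) and no simple keratin probe (0 of 6) did so. The main results below that rest on this array are given with and without it. All 4 groups share 1 estimate of spread per gene. A wide gap between these 2 arrays therefore also widens the error in comparisons that do not use them. A gene without a call there may still differ. When array 1 is left out, the group has 1 array, which is then assumed to vary like the other groups.

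**Figure D1:**
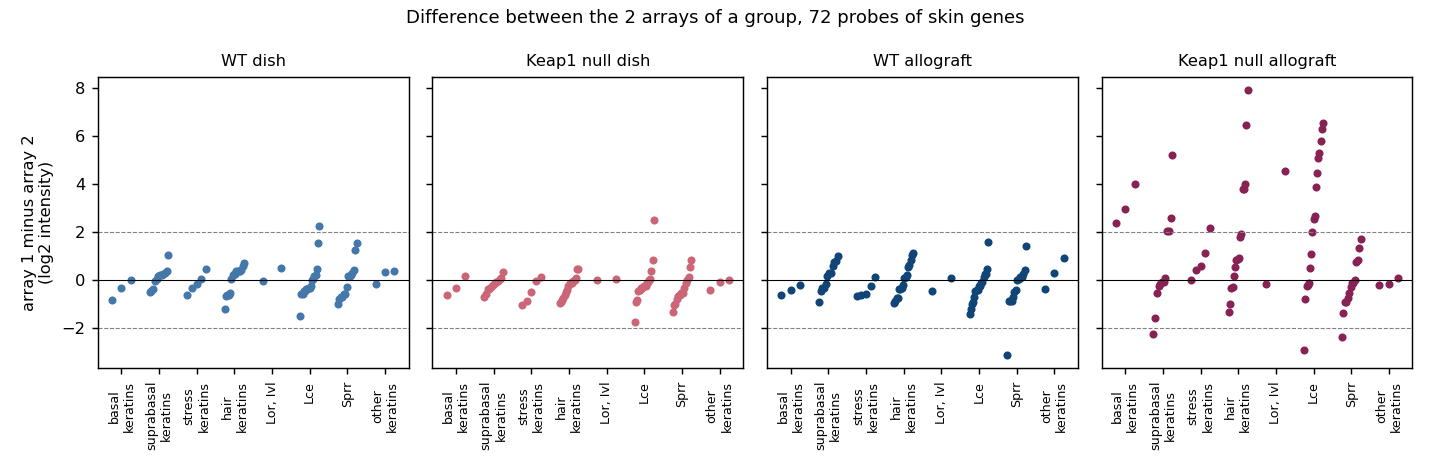
Difference in log2 intensity between array 1 and array 2 of the same group for each of the 72 skin gene probes, 1 panel per group, sorted within each gene class along the x axis. Dashed lines mark a difference of 2 in either direction; 23 probes pass the upper line in Keap1 null allografts, against 1, 1 and 0 in the other groups.

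The basal pair Krt5 and Krt14 shows the pattern. Krt5 read -5.35 and -4.50 (WT) and -5.18 and -4.83 (Keap1 null) on the dish arrays, and -5.59 and -4.99 (WT) and -0.71 and -4.70 (Keap1 null) on the allograft arrays. Its partner Krt14 read -4.47 and -4.13, then -4.48 and -3.85, then -4.87 and -4.64 in the first 3 groups, and -1.17 and -4.10 in Keap1 null allografts. A single array is high in each case, and the other 7 lie within a narrow band. Krt15, a basal keratin of the hair follicle, read -5.60 on that array and -7.97 on its partner, against -6.73 to -6.13 on the remaining 6.

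Some suprabasal and hair keratins had wider gaps than these, although as classes fewer of their probes passed 2 (4 of 12 and 5 of 16, against 3 of 3 basal). Krt1, the type II keratin of the differentiating epidermis, lay between -9.54 and -8.71 on 7 arrays, below detection, and at -3.74 on Keap1 null allograft array 1, the only array on which it was well above background. Its type I partner Krt10 lay between -6.02 and -5.35 on 7 arrays and at -2.75 on that one. Among keratins of the inner root sheath, which surrounds the growing hair, Krt71 read -0.70 on array 1 and -8.60 on array 2, the widest difference among all members, and Krt25 read -2.48 and -8.94. Krt71 was also above background in both WT allografts, at -4.87 and -5.49, and in none of the 4 dishes.

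Lor, a major protein of the cornified envelope, read -2.53 and -2.49 in WT dishes and -0.51 and -0.59 in their tumours, beside -1.03 and -1.04 in Keap1 null cells and 0.69 and -3.84 in theirs. The Keap1 null allografts gave the highest and the lowest of the 8 values. Lor was 1.47 higher on the log2 scale in Keap1 null than in WT dishes, and rose by 1.96 in WT growth. Neither was called with all arrays (limma adjusted p = 0.533 and 0.240), where the shared spread takes in the gap between the Keap1 null allografts. Genes outside the members behaved in part alike: of 38 other keratinocyte genes with a probe, 8 lay more than 2 above array 2 on Keap1 null allograft array 1 (Hrnr, Calml3, Lypd3, Dsp, Dsg1a, Ly6d, Spink5 and Trp63) and 1 lay as far below (Dsc1). Of these 38, between 23 and 30 were above background on an array, 30 and 27 on the Keap1 null allograft arrays. As a multiple of the 75th percentile, their summed level was 20.5 and 16.9 there and 16.3 and 13.9 in WT allografts. It was 21.0 to 26.7 in dishes. Its largest part on every array was Sfn, at 3.82 to 4.35 in dishes and 3.05 to 3.36 in allografts, so the sum does not stand for the list. Of the 28 tested, 8 rose and 8 fell in WT growth, and 12 rose and 6 fell in Keap1 null growth. Over all targets 68.0% and 64.9% were called. Trp63, a defining factor of stratified epithelia, read -6.34 on array 1 and -8.50 on array 2, and -6.65 and -6.23 in WT allografts. The summed level of 8 skeletal muscle markers was 12.1 and 2.79 in Keap1 null allografts, 3.95 and 0.90 in WT allografts and at most 0.31 in dishes. No array detected Dsg3, Flg2 or Rptn of the keratinocyte list. Of 40 hair keratin-associated protein genes, 2 exceeded array 2 by more than 2. Their part in the skin gene values was not tested.

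Over the 46 tested genes, the limma fit called few differences between lines in dishes and more in tumours. In dishes, 1 gene was higher and 5 were lower in the Keap1 null line at an adjusted p below 0.05, where 21.0% of all 23174 tested targets were called (11.4% higher, 9.68% lower). In allografts, 9 were higher and 4 lower, with 41.7% of all targets called (20.5% higher, 21.2% lower). Krt6a, Krt6b and Ivl, among the 9, passed the detection filter only through the Keap1 null allografts, where they are high. The filter thus favoured their calls. From dish to allograft, 3 rose and 15 fell in the WT line, with 68.0% of all targets called (35.9% higher, 32.1% lower), and 9 rose and 9 fell in the Keap1 null line, with 64.9% called (35.9% higher, 29.0% lower). Scaling to the array median changed the split to 2 and 28 in WT and 9 and 19 in Keap1 null, and quantile normalization to 2 and 19, and 9 and 14. Over all targets 84.2% and 80.8% were called under median scaling (14445 lower and 5060 higher in WT) and 66.4% and 65.7% under quantile normalization. Scaling to the array median moved the median over all targets to -1.04 in WT and -0.84 in Keap1 null, against -0.02 and 0.03 here. The change from dish to allograft differed between the lines (an interaction) for 13 members, 9 more positive and 4 more negative in Keap1 null, with 32.8% of all targets called (15.8% and 17.0%). In each comparison the called share of members lay below that of all targets.

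The medians over the 46 genes were -0.14 in dishes, 0.37 in allografts, -0.41 and 0.07 for the change into allografts in WT and Keap1 null, and 0.75 for the interaction, beside -0.05, 0.01, -0.02, 0.03 and 0.04 over all targets. Without Keap1 null allograft array 1 the calls, higher and lower, were 4 and 5 in dishes, 8 and 7 in allografts, 5 and 18 for WT growth, 10 and 14 for Keap1 null growth and 9 and 7 for the interaction. These fits called 19.3%, 32.2%, 68.0%, 59.0% and 26.6% of all targets. Of the calls made with all arrays, 6 of 6, 12 of 13, 18 of 18, 18 of 18 and 13 of 13 were made again in the same direction. Without array 2 instead, between allografts 23 members were higher and 5 lower in the Keap1 null line. Called without array 2 were 36.1% of all targets between allografts, 19.3% in dishes, 68.0% and 59.8% for WT and Keap1 null growth, and 29.1% for the interaction.

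The simple keratins were measured closely. All 4 were called in WT growth and 3 of 4 in Keap1 null growth, where 68.0% and 64.9% of all targets were called. Krt7 rose strongly in WT tumours and not in Keap1 null tumours. It read -3.68 and -3.85 in dishes of the WT line against -3.99 and -4.13 in dishes of the Keap1 null line, and 1.07 and 1.35 in allografts of the former against -5.32 and -4.88 in allografts of the latter. The WT allografts stand alone, far above the other 6 arrays. Growth as a tumour raised Krt7 31.4-fold in WT (log2 difference 4.97 ± 0.18 SE, limma adjusted p = 6.99e-06) and lowered it 2.05-fold in Keap1 null (-1.04 ± 0.18, adjusted p = 0.00353), and the difference between these changes was -6.01 ± 0.26 (adjusted p = 9.88e-05). Between allografts Krt7 was 79.4-fold lower in Keap1 null (limma adjusted p = 1.27e-05). A second Krt7 probe gave 23.8-fold lower, with r = 0.99 between the probes over the 8 arrays, but the small fall in Keap1 null growth was not called on it (limma adjusted p = 0.355).

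Krt8 and Krt18, which form 1 filament, moved apart between the tumours. Krt8 read -1.19 and -1.51 (WT) and -1.08 and -1.16 (Keap1 null) on the dish arrays, and -2.50 and -2.46 (WT) and -0.89 and -0.45 (Keap1 null) on the allograft arrays. Only the WT allografts are low. Krt8 fell 2.19-fold in WT growth (limma adjusted p = 0.00204) and lay 3.52-fold higher in the Keap1 null allografts (log2 difference 1.81 ± 0.18, adjusted p = 0.000644), with a second probe at 3.55-fold. Its change of 0.46 in Keap1 null growth was not called (limma adjusted p = 0.0691), while that of the second probe, 0.56, was (0.0354). Krt18 read 5.95 and 5.72, 5.14 and 5.16, 5.21 and 4.99, and 3.35 and 3.19 in the same order of groups, so that the Keap1 null allografts were lowest. It was 3.55-fold lower in the Keap1 null allografts (-1.83 ± 0.13, limma adjusted p = 0.000177), and its change into allografts was -1.88 ± 0.13 in Keap1 null and -0.73 ± 0.13 in WT, with an interaction of -1.15 (adjusted p = 0.00589). The fall in WT was lost under quantile normalization (log2 difference -0.02, limma adjusted p = 0.894). In dishes Krt18 was 1.60-fold lower in Keap1 null (limma adjusted p = 0.0163), and this was not called without WT dish array 1 (0.0797), Keap1 null dish array 1 (0.0932) or Keap1 null dish array 2 (0.0865).

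Krt19, the other type I partner of Krt8, fell in both lines to much the same extent. It read 2.89 and 2.49 in WT dishes and -1.08 and -0.89 in their tumours, beside 2.31 and 2.05 in Keap1 null cells and -1.40 and -1.30 in theirs, with no overlap between dishes and tumours. The fall was 12.8-fold in WT (limma adjusted p = 1.58e-05) and 11.6-fold in Keap1 null (2.12e-05), and the difference between them, 0.14 ± 0.24, was not called (adjusted p = 0.709). The type II partner and the 2 type I partners thus gave allograft differences between lines of 1.81, -1.83 and -0.37, the last not called (limma adjusted p = 0.141). None of the simple keratin probes differed by more than 2 between the arrays of a group.

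Markers of other simple epithelia were measured beside them. Of 15 such genes 8 to 10 were above background on an array. Their summed level was 1.63 and 1.37 in WT dishes and 0.44 and 0.46 in Keap1 null dishes. In allografts it was 0.91 and 0.84 (WT) and 1.45 and 1.31 (Keap1 null). The sum was mostly Cldn3 in WT dishes, where Cldn3 read 0.29 and -0.01, and in Keap1 null allografts, where it read 0.19 and 0.03. Cldn3 read -3.80 and -3.85 in Keap1 null dishes and -1.77 and -2.22 in WT allografts, so the sum does not stand for the list. Of the 10 tested, 2 were higher and 6 lower in the Keap1 null allografts. E-cadherin (Cdh1) read -3.01 and -3.10 in allografts of the WT line and -4.67 and -5.12 in those of the Keap1 null line, while Elf3 and Esrp1 were detected on no array. The summed level of 8 mesothelial genes, mostly Msln, was 68.6 and 60.6 in tumours of the Keap1 null line, beside 21.2 and 21.1 in those of the WT line. Of 5 tested genes of that list, Msln (log2 difference 1.65) and Rspo1 (2.98) were higher and Bnc1 (-2.91) was lower in Keap1 null allografts. Lrrn4 and Upk1b were also called lower, the former undetected in that group and the latter in the allografts of both lines, so neither is given a size. The part of such cells in the simple keratin values was not tested.

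**Figure D2:**
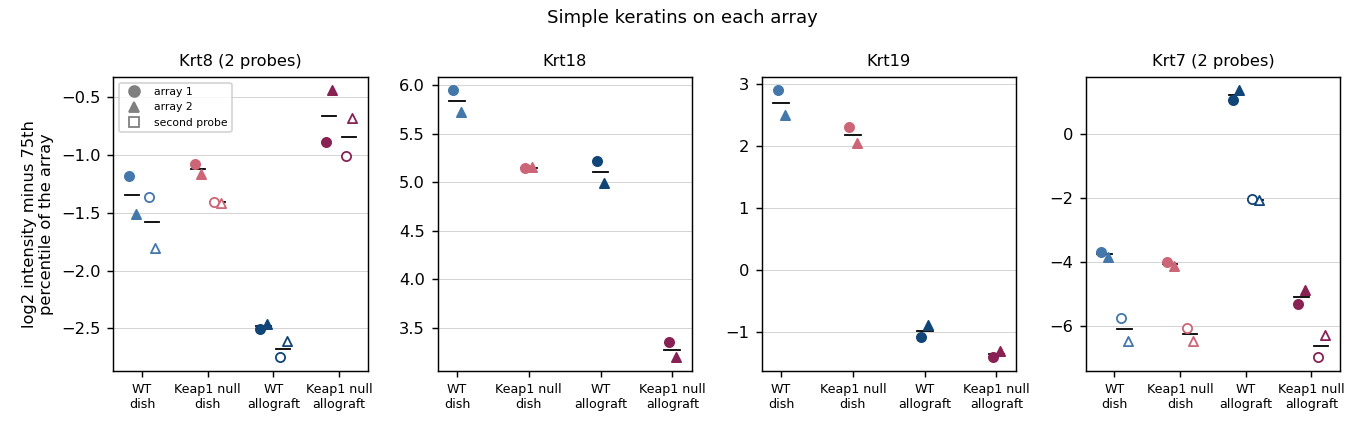
Log2 intensity minus the 75th percentile of the array for Krt8, Krt18, Krt19 and Krt7 on each of the 8 arrays; circles are array 1, triangles array 2, open symbols a second probe and short lines the group mean. Krt7 is high in the 2 WT allografts only, at 1.07 and 1.35, whereas Krt19 is low in all 4 allografts.

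A small set of keratins that are not part of the basal and suprabasal skin pairs was high on both Keap1 null allograft arrays. Krt23, a type I keratin of glandular and gut epithelia, and Krt20, a type I keratin of gut, urothelium and Merkel cells, lie close to each other on chromosome 11. Krt23 read -8.58 and -8.39 (WT) and -9.0 and -8.90 (Keap1 null) on the dish arrays, and -3.51 and -3.78 (WT) and 0.32 and 0.23 (Keap1 null) on the allograft arrays. It was below background in all dishes and above it in all tumours. Krt23 rose at least 7.81-fold with growth in WT and at least 127-fold in Keap1 null (limma adjusted p = 2.51e-06 and 1.76e-06), and its level was 15.1-fold higher in the Keap1 null allografts (3.92 ± 0.13, adjusted p = 1.63e-05). Here "at least" sets the bright group against the detection limit of the dim group's arrays. Krt20 read -2.03 and -2.40, -4.38 and -3.96, -2.03 and -2.94, and 2.56 and 2.75 in the same order. Only the Keap1 null allografts are high, and the Keap1 null dishes are lowest. Krt20 rose 114-fold in Keap1 null growth (6.83 ± 0.33, limma adjusted p = 2.03e-05) and lay 35.3-fold higher in the Keap1 null allografts (5.14 ± 0.33, adjusted p = 0.000118), while its change in WT was not called (-0.27, adjusted p = 0.495). In dishes it was 3.89-fold lower in Keap1 null (limma adjusted p = 0.0100), a call lost without WT dish array 1 (0.0595) or Keap1 null dish array 1 (0.0628).

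Krt76, a type II keratin of the hard palate and gums, was the only member called higher in Keap1 null cells both in dishes and in tumours. It read -4.39 and -4.58 in WT dishes and -7.96 and -8.52 in their tumours, beside -1.56 and -1.65 in Keap1 null cells and 0.25 and 0.34 in theirs. The 4 groups are fully separate, with both Keap1 null groups on top. Krt76 was 7.41-fold higher in dishes (2.89 ± 0.19, limma adjusted p = 0.000338) and at least 169-fold higher in allografts (adjusted p = 8.21e-06). With growth as a tumour it fell at least 6.14-fold in WT and rose 3.72-fold in Keap1 null, with a called interaction (limma adjusted p = 0.000123) that is at least 4.51 on the log2 scale, WT allografts being below background.

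Krt12, a type I keratin of the corneal epithelium, read -5.57 and -5.52 in dishes of the WT line against -6.79 and -6.67 in dishes of the Keap1 null line, and -9.19 and -9.36 in allografts of the former against -3.41 and -2.86 in allografts of the latter. It was above background only in WT dishes and in Keap1 null allografts. It was at least 15.7-fold higher in Keap1 null than in WT allografts (limma adjusted p = 1.39e-05), and its interaction was called (adjusted p = 8.41e-05). Since WT allografts and Keap1 null dishes lie below background, the interaction is only bounded, at 5.13 or more on the log2 scale when undetected arrays are set to their detection limit. In dishes the order was opposite, with Krt12 at least 2.23-fold lower in Keap1 null (limma adjusted p = 0.00853), which was not called without Keap1 null dish array 1 (0.0585) or with normexp, where the log2 difference shrank to -0.34 (0.239).

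The stress keratins are low in resting epidermis and are induced by wounding and hyperproliferation. Krt6a was below background on 6 arrays, between -8.01 and -7.01, and read -1.67 and -1.67 in Keap1 null allografts. Krt6b lay between -8.64 and -6.90 on the same 6 arrays and read -3.27 and -3.85 in Keap1 null allografts. Krt6a was at least 43.3-fold higher in Keap1 null than in WT allografts and Krt6b at least 11.7-fold (limma adjusted p = 1.93e-05 and 3.84e-05). Both were tested only because the Keap1 null allografts detected them, so the filter favoured these calls. The 2 genes are near-identical copies, and whether their probes keep them apart was not tested. Their type I partners, Krt16 and Krt17, were called in no comparison with all arrays. Krt16 read -0.50 and -2.68 in Keap1 null allografts and Krt17 read -2.16 and -2.57, beside ranges of -3.45 to -2.17 and -3.46 to -2.48 on the other 6 arrays. Their allograft differences between lines were 1.55 and 0.81 on the log2 scale (limma adjusted p = 0.125 and 0.150). Krt16 differed by 0.46 without Keap1 null allograft array 1 (limma adjusted p = 0.358) and by 2.64, a call, without array 2 (0.00476). Krt17 was called with normexp background correction (0.67, limma adjusted p = 0.0479).

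Krt75, a type II keratin of the companion layer of hair follicles, read -7.01 and -6.69 (WT) and -7.50 and -6.43 (Keap1 null) on the dish arrays, and -6.26 and -6.02 (WT) and -3.73 and -4.87 (Keap1 null) on the allograft arrays. It rose 6.33-fold in Keap1 null growth (limma adjusted p = 0.00357), at least 4.84-fold with the 1 undetected of the 2 dish arrays at its detection limit. Its 3.57-fold difference between allografts (limma adjusted p = 0.0252) was lost without Keap1 null allograft array 1 (0.102), WT allograft array 1 (0.107) or WT allograft array 2 (0.0777). Ivl, an early precursor of the envelope, was below background on 6 arrays, from -7.86 to -6.41, and read -5.30 and -5.13 in Keap1 null allografts. This is at least 3.71-fold above WT allografts (limma adjusted p = 0.000386). Ivl too was tested only through its detection in Keap1 null allografts, which favoured the call. Ivl and Krt6b were also called lower in WT allografts than in WT dishes, but both groups lie below background there and no fold is given.

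**Figure D3:**
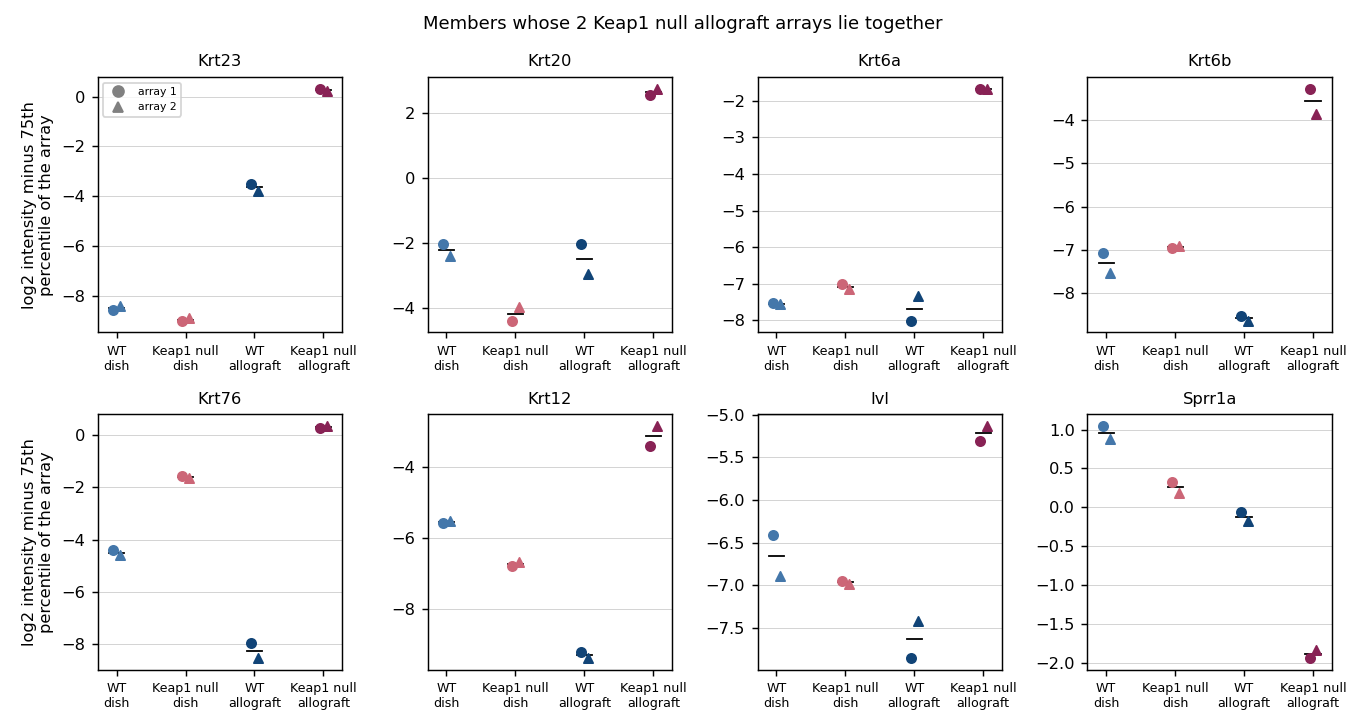
Log2 intensity minus the 75th percentile of the array for 8 members whose 2 Keap1 null allograft arrays lie within 0.6 of each other; circles are array 1, triangles array 2, short lines the group mean. Krt23, Krt20, Krt6a, Krt6b, Krt76, Krt12 and Ivl are highest in Keap1 null allografts and Sprr1a is lowest there, at -1.94 and -1.84.

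The 250 bases before the start of Krt20 and Krt76 are shown because these 2 members rose in Keap1 null tumours and each holds a match to TGACNNNGC, the core of the antioxidant response element that NRF2 binds. In GRCm38.p6 (RefSeq) they lie at chr11:99438154-99438403 (minus strand) and chr15:101892921-101893170 (minus strand). They are written 5′ to 3′ on the gene's strand, ending just before the start, with matches to TGACNNNGC, to TGANTCA (the AP-1 motif) and to TATAAA, on either strand, in capitals.
Krt20: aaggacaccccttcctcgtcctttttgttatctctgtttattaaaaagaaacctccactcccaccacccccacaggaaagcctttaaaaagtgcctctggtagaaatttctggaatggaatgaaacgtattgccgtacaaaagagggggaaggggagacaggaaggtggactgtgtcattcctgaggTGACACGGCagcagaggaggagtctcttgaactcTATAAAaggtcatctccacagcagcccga
Krt76: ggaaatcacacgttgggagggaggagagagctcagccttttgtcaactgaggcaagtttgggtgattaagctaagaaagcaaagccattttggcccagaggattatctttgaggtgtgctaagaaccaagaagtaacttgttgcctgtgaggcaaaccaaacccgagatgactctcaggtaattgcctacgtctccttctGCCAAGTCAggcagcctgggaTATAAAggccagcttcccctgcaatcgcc

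Counted from the start, the core match begins at -63 in Krt20 and at -50 in Krt76, and both windows hold a TATAAA. Of all 32851 windows of this length 10.2% hold the core, 6.75% the AP-1 motif and 12.4% a TATAAA. Of 53 windows for 52 member genes, 10 hold the core (18.9%), 12 the AP-1 motif (22.6%) and 25 a TATAAA (47.2%). Krt23, Krt75, Krt12 and Ivl hold no core match in this window, and Krt6a and Krt6b have no window in the table. Lce3c, with 2 core matches, Sprr1a, with 1, and Krt20 itself were called lower in Keap1 null dishes, and Sprr1a in Keap1 null allografts too. Krt20 and Krt76 were picked for both their rise and their match, so they show no link between the 2. The 3 simple keratin windows (Krt7, Krt8 and Krt18) hold none of the 3 motifs. A match of letters shows no binding, and none was measured here.

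With both arrays of Keap1 null allografts in view, the difference between the allografts of the lines can be split by gene. For Krt23, Krt20, Krt6a, Krt6b, Krt12, Krt76 and Ivl, the value was nearly the same with either array. For Krt5 the log2 difference was 0.59 without array 1 and 4.59 without array 2, for Krt14 0.65 and 3.59, and for Krt10 0.57 and 3.16. None of these 3 was called without array 1 (limma adjusted p = 0.372, 0.189 and 0.105), and all 3 were called without array 2. Lce1f was detected in no WT allograft and not on array 2, so without array 1 it has no difference to give, and without array 2 it was at least 17.3-fold higher in Keap1 null. Lor, detected on all 8 arrays, differed by -3.29 without array 1 and by 1.24 without array 2, called in opposite directions (limma adjusted p = 0.000240 and 0.00140). Krt71 was 4.48 higher on the log2 scale without array 2, and without array 1, where it was undetected, at least 2.92-fold lower. Krt15 was 0.74 higher without array 2 and at least 1.31-fold lower without array 1, again undetected there.

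**Figure D4:**
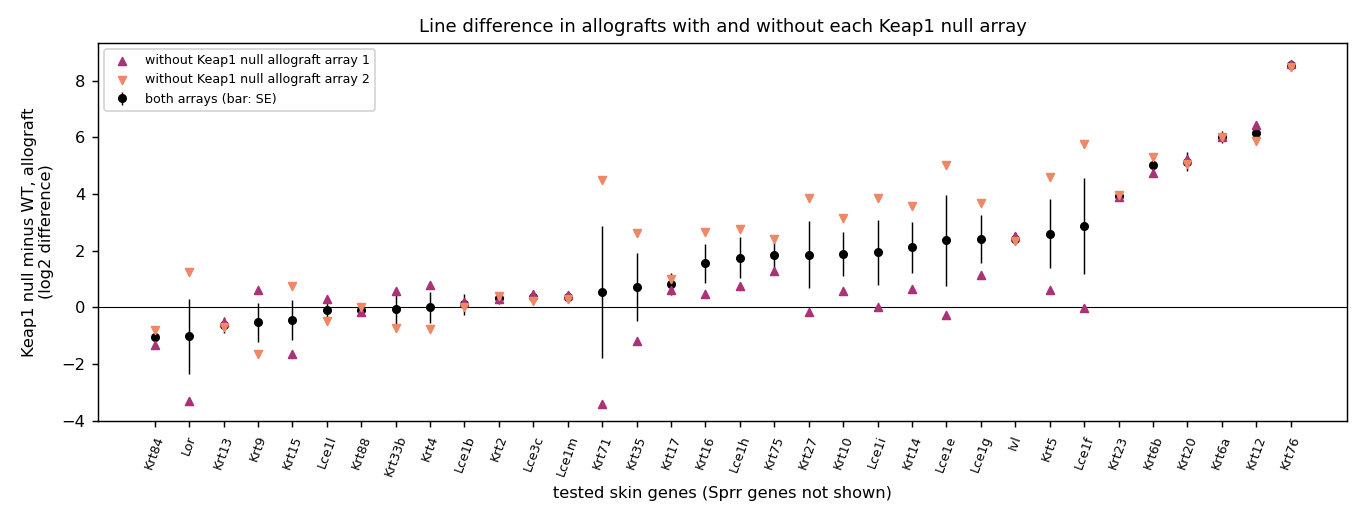
Log2 difference of Keap1 null minus WT allografts for the 34 tested skin genes other than Sprr genes, in order of size, with all arrays (black, bar SE) and without either Keap1 null allograft array (triangles). For Krt23, Krt6a, Krt20, Krt12 and Krt76 at the right the 3 symbols lie together, with values below background plotted as measured, whereas for Lor, Krt71, Lce1e and Lce1f the triangles lie on either side of the black point.

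Some of the Lce1 genes, which encode small glycine- and cysteine-rich proteins of the late envelope, showed another pattern, in the dishes. Lce1e, Lce1f, Lce1g, Lce1h and Lce1i lie next to each other in chromosomal order. In dishes Lce1g read -1.48 and -1.01 (WT) and -0.50 and -0.17 (Keap1 null), and in allografts -8.19 and -6.99 (WT) and -3.91 and -6.44 (Keap1 null). Lce1i read -2.14 and -1.75, then -1.11 and -1.04 in dishes, and -6.98 and -7.25, then -3.25 and -7.11 in allografts. For both genes the 4 dishes lie above all 4 tumours. Lce1h read -5.37 to -4.65 in dishes and -9.23 and -7.81 in WT allografts, with -5.77 and -7.76 in Keap1 null allografts. Lce1b and Lce1l did not share this pattern and were above background on all 8 arrays. Lce1b read -3.03 to -1.96 in dishes and -2.78 to -2.08 in allografts, and Lce1l -3.73 to -3.13 and -4.07 to -3.28. A second Lce1b probe was above background only on Keap1 null allograft array 1 and did not follow the first (r = -0.002).

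From dish to allograft in WT, Lce1g fell at least 53.2-fold with the 1 undetected of the 2 WT allograft arrays set to its detection limit (81.2-fold as measured, limma adjusted p = 0.000917), Lce1i at least 35.8-fold (adjusted p = 0.00790) and Lce1h at least 3.74-fold (adjusted p = 0.00784). In Keap1 null, Lce1g fell 28.6-fold (-4.84 ± 0.84, limma adjusted p = 0.00314) and Lce1i at least 15.1-fold, with 1 of 2 allograft arrays detecting it (adjusted p = 0.0208). The latter was not called without Keap1 null dish array 1 (0.0703) or Keap1 null dish array 2 (0.0733). It was at least 50.3-fold without Keap1 null allograft array 1. Without that array Lce1e, Lce1f and Lce1h were also called lower in Keap1 null growth (limma adjusted p = 0.00785, 0.000474 and 0.0118), but the remaining Keap1 null allograft array lies below background for all 3, which leaves falls of at least 1.72-fold, 2.50-fold and 3.80-fold. The second Lce1g probe was above background on 4 arrays, 1 of each group, and did not follow the first (r = 0.10 over 8 arrays), so the Lce1g value rests on 1 probe.

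Lce1a2, Lce1c and Lce1d, on the other side of Lce1e, were different. They were above background only on Keap1 null allograft array 1, at -4.19, -3.44 and -2.50, and lay between -9.38 and -8.16 on the other 7 arrays. Beyond Lce1i, the neighbour Kprp is an envelope gene that is no member. It read -1.29 and -1.40 in WT dishes and -3.59 and -3.63 in Keap1 null dishes. This difference of -2.27 ± 0.97 was not called (limma adjusted p = 0.168). Its error takes in the gap between the Keap1 null allograft arrays, -3.89 and -7.16, so the missing call does not show equal levels in dishes. Crct1, farther along, was lower in Keap1 null dishes, at -4.75 and -4.79 against -0.65 and -0.75 in WT dishes (limma adjusted p = 0.00253). Lce1g and Lce1i levels in Keap1 null dishes lay above those of WT dishes without a call. The errors of these 2 genes also take in the gap between the Keap1 null allograft arrays. Lce1m fell 1.82-fold in WT growth (limma adjusted p = 0.00957), which was not called without WT dish array 1 (0.0526).

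**Figure D5:**
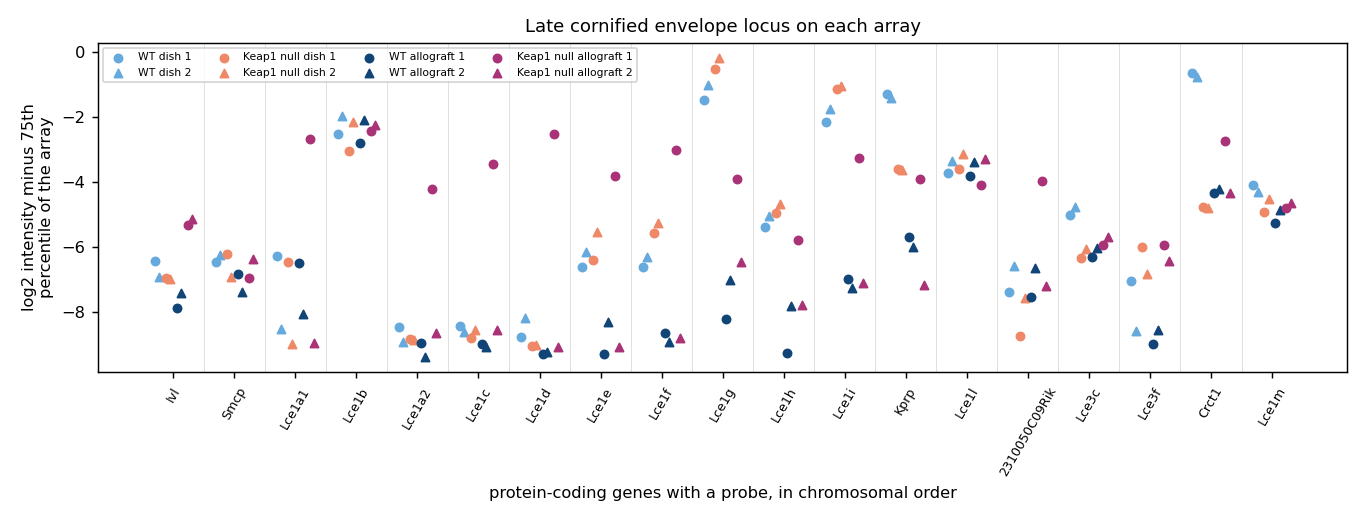
Log2 intensity minus the 75th percentile of the array for genes from Ivl to Lce1m in chromosomal order, 1 column per gene with 8 points, coloured by group; circles are array 1 and triangles array 2. In the columns of Lce1g and Lce1i the 4 dish arrays lie between -2.14 and -0.17, and in those of Lce1a2, Lce1c and Lce1d only Keap1 null allograft array 1 is above background.

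Upstream windows are shown to compare genes whose dish signal fell in WT tumours (Lce1g, Lce1h and Lce1i) with 1 gene without dish signal (Lce1d). They lie at chr3:92752339-92752588 (minus strand), chr3:92765066-92765315 (minus strand), chr3:92778900-92779149 (minus strand) and chr3:92687211-92687460 (minus strand) in GRCm38.p6, with capitals as before.
Lce1g: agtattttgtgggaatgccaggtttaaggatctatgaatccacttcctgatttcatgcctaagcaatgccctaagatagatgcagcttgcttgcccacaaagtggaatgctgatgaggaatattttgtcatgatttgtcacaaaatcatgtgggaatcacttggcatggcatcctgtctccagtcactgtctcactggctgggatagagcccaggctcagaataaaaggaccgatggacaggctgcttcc
Lce1h: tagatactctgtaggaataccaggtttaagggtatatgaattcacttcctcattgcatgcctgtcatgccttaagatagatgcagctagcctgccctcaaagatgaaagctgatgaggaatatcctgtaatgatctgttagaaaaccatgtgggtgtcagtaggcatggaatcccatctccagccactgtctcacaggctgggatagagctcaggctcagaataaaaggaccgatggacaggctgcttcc
Lce1i: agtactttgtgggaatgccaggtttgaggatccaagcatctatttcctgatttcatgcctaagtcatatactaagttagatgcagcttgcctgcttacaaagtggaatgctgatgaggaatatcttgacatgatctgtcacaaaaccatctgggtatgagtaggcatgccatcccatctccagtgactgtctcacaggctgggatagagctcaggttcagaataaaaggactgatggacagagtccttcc
Lce1d: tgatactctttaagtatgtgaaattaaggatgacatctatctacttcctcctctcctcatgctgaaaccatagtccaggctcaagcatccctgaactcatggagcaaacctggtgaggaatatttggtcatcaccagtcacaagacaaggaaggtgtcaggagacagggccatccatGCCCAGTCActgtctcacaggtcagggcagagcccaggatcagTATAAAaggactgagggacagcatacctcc

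In a global alignment, Lce1g shared 85.6% of its 250 bases with Lce1i and 85.2% with Lce1h, and Lce1h shared 82.0% with Lce1i. Lce1e shared 78.8% to 81.6% with these 3. Every other pair of the Lce1 windows in the table shared at most 76.4%. The family is also alike in its transcripts, and whether each probe reads 1 Lce1 gene alone was not tested. Lce1d holds a core match at -73 from its start and a TATAAA, and the other 3 windows shown hold none of the 3 motifs. The windows of Lce1a2 and Lce1c, which like Lce1d gave no dish signal, also hold none of them. These motifs thus did not separate the genes with dish signal from those without it. None of the 13 Lce windows holds the AP-1 motif.

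Lce3c, which belongs to a group of late envelope genes linked to barrier repair, read -5.02 and -4.77 in WT dishes and -6.29 and -6.03 in their tumours, beside -6.32 and -6.06 in Keap1 null cells and -5.94 and -5.68 in theirs. WT dishes were highest, by 2.46-fold over Keap1 null dishes (-1.30 ± 0.17, limma adjusted p = 0.00399) and by 2.41-fold over WT allografts (adjusted p = 0.000949). Its interaction of 1.65 (limma adjusted p = 0.00406) was not called on its second probe, which gave 0.76 (adjusted p = 0.268).

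Among the Sprr genes, which cross-bridge the envelope, Sprr1a changed in all 5 comparisons and always downwards. It read 1.05 and 0.88 in dishes of the WT line against 0.32 and 0.19 in dishes of the Keap1 null line, and -0.07 and -0.18 in allografts of the former against -1.94 and -1.84 in allografts of the latter. The groups do not overlap and fall in this order. Sprr1a was 1.63-fold lower in Keap1 null dishes (limma adjusted p = 0.00771), which was not called without Keap1 null dish array 2 (0.0628), and 3.41-fold lower in Keap1 null allografts (-1.77 ± 0.11, adjusted p = 0.000109). Growth as a tumour lowered it 2.12-fold in WT and 4.43-fold in Keap1 null, with an interaction of -1.07 ± 0.15 (limma adjusted p = 0.00411). Ivl, described above, ran the other way in Keap1 null tumours.

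The upstream windows of Sprr1a, Ivl and Lor are shown since all 3 hold the AP-1 motif, which marks many envelope genes. They lie at chr3:92485882-92486131 (minus strand), chr3:92573736-92573985 (minus strand) and chr3:92083143-92083392 (minus strand) in GRCm38.p6.
Sprr1a: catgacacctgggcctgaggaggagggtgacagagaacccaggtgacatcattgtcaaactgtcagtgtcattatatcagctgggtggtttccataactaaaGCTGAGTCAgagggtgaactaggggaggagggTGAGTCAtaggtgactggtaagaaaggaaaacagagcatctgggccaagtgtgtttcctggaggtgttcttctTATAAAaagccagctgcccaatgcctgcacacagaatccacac
Ivl: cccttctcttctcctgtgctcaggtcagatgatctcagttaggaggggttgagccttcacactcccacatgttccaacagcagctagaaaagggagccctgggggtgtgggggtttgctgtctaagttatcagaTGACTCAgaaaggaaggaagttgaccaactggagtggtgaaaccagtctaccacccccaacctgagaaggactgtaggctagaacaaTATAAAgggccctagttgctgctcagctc
Lor: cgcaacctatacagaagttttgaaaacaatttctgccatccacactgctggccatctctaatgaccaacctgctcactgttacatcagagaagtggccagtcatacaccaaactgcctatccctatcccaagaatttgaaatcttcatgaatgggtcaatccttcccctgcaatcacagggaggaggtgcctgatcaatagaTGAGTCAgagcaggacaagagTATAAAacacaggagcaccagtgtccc

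Sprr1a holds 2 AP-1 matches, at -146 and -116 from its start, the former overlapping a core match. Ivl holds 1 at -116 and Lor 1 at -48, and all 3 windows hold a TATAAA. Of 11 Sprr windows, 8 hold the AP-1 motif and 9 a TATAAA, 2 of the 8 being those of Sprr1a and Sprr1b. The 3 genes with this shared motif did not share a direction: between allografts Sprr1a was lower and Ivl higher in Keap1 null, and Lor depended on the array.

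The other Sprr genes hardly separated the groups. Sprr2a1 read 6.91 and 6.69 (WT) and 6.56 and 6.54 (Keap1 null) on the dish arrays, and 6.15 and 6.13 (WT) and 6.01 and 6.14 (Keap1 null) on the allograft arrays. It fell 1.58-fold in WT growth (limma adjusted p = 0.00213), with the sign turned under quantile normalization (0.09), and 1.39-fold in Keap1 null growth (adjusted p = 0.00905), which was not called without Keap1 null dish array 1 (0.0510). Its second probe was called in no comparison and did not follow the first (r = -0.40). Sprr2b, Sprr2e, Sprr2g, Sprr2j-ps, Sprr2k and Sprr4 were called in none. For these 6 genes array 2 lay above array 1 in all 4 groups, as it did for 11 of 28 member probes and 21.5% of all 23741 probes that were above background on all 8 arrays. Sprr2b, for example, read -0.32 and 0.67 in WT dishes and -0.70 and 0.18 in WT allografts, and Sprr4 read -5.48 and -2.36 in WT allografts. Array number is also slide number, so replicate and slide cannot be told apart. Sprr2 genes are alike in sequence, and the probes may not keep them apart.

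A few remaining keratins were called. Krt2, of the upper epidermis, rose 2.66-fold in WT growth, with 1 of 2 WT dish arrays above background (limma adjusted p = 0.00157), and 4.07-fold in Keap1 null growth (0.000384). The rise in WT was not called after scaling to the array median (log2 difference 0.39, adjusted p = 0.0919) or quantile normalization (0.35, adjusted p = 0.138), and a second probe of Krt2 was not above background on any array. Krt13, a type I keratin of mucosal epithelia, fell in both lines, by -1.26 in WT and -1.29 in Keap1 null (limma adjusted p = 0.00830 and 0.00814). Its probes disagree in Keap1 null, since the second probe rose from -4.99 and -4.89 in dishes to -3.60 and -3.50 in allografts (1.39 ± 0.28, limma adjusted p = 0.00580). That probe was also 10.8-fold higher in the Keap1 null allografts, with 1 of 2 WT allograft arrays above background (3.43, limma adjusted p = 0.000263) with an interaction of 3.36 (0.00173), where the first probe gave -0.61 and -0.03, neither called. Krt84, a hair keratin, was at least 2.06-fold lower in the Keap1 null allografts, where 1 of 2 arrays detected it (limma adjusted p = 0.00920), not called without WT allograft array 2 (0.0502) or with normexp, where the log2 difference shrank from -1.05 to -0.13 (0.490). Its interaction of -1.02 (limma adjusted p = 0.0429) was not called in 12 of 17 alternative fits, among them 6 of the 8 that leave out 1 array. It was also lost with median scaling (limma adjusted p = 0.0881), quantile normalization (0.170) and the replicate number as a block (0.0551). With normexp its log2 difference was -0.03 (limma adjusted p = 0.920). Krt4, Krt9, Krt33b and Krt88 were called in no comparison. A second Krt33b probe was not above background on any array and did not follow the first (r = -0.19).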

How the data were processed

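Per the file headers, the 1-colour arrays were read with Feature Extraction 10.7.3.1. The deposited intensity used is the processed signal, which the software had already corrected for background. Probes were named through RefSeq accessions, which gave a symbol to 26690 of 41174 non-control probes. Outlier spots and control spots were left out, spots of a probe were averaged, and log2 intensity minus the 75th percentile of each array was taken. Targets that both arrays of some group showed well above background were fitted with limma 3.58.1 in R 4.3.3 over all 4 groups, and p-values were Benjamini-Hochberg adjusted over 23174 targets. A gene with several probes was represented by its tested probe of highest mean and the others are given beside it. An exact test of 2 arrays against 2 cannot go below p = 0.33. The limma code was tested on simulated data. Bounds written as at least set each undetected value to its array's lowest signal well above background, unless it was higher. Members and gene lists were chosen with earlier results of these data known. Same-numbered arrays deviated together (r from 0.246 to 0.429 over 6 pairs of groups). Each number is also a slide, so a shared slide and paired samples cannot be told apart. The main fit used no replicate block. With the block, 28.3% of all targets were called between lines in dishes and 49.7% in allografts, against 21.0% and 41.7% in the main fit. Other settings tried were scaling to the median, quantile normalization, the authors' deposited value table unscaled, normexp, other filters, the replicate block and leaving out each array. Normexp used the median spot signal, a column chosen after seeing the data. Named were fixed markers (Keap1, simple and basal keratins, Krt1, Krt10, Krt6a, Krt6b, Krt16, Krt17, Lor, Ivl), the called members of largest change in each comparison and gene class, and genes whose probes disagree. Other members, such as Krt71, Krt25, the Lce1 genes seen on 1 array and the uncalled Sprr genes, were chosen after their values were seen.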

Additional observations from a re-analysis of the deposited data

Results flagged for a closer look

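For 13 members the change from dish to allograft differed between the lines by a test of that difference, given as log2 change in Keap1 null minus that in WT with limma adjusted p. The difference was positive for Krt12 (7.33, adjusted p = 8.41e-05), Krt20 (7.10, 0.000267), Krt76 (5.65, 0.000123), Krt6a (5.54, 0.000156), Krt6b (4.66, 0.000322), Krt23 (4.38, 9.25e-05), Ivl (2.73, 0.00145), Lce3c (1.65, 0.00406) and Krt8 (1.59, 0.00593). It was negative for Krt7 (-6.01, limma adjusted p = 9.88e-05), Krt18 (-1.15, 0.00589), Sprr1a (-1.07, 0.00411) and Krt84 (-1.02, 0.0429). That of Krt84 was not called in 12 of 17 alternative fits. Krt12, Krt76, Krt6a, Krt6b, Krt23 and Ivl lie below background in at least 1 whole group, so their values are fitted numbers and no measured sizes, and no order is read from them. Those of Krt12 and Krt76 are at least 5.13 and 4.51 with undetected arrays at their detection limit, and the other 4 have no bound because the dishes of both lines are undetected. Krt6a, Krt6b and Ivl were tested only through the Keap1 null allografts, where they are high, which favoured their calls. All 13 were called again without array 1 of the Keap1 null allografts, and 12 of 13 without array 2, the exception being Krt84.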

How the results depend on the processing

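Of 68 called member differences, 52 were called in every one of the 18 alternative fits that tested them and 16 were lost in at least 1. The fall of Sprr2a1 in WT growth turned to a log2 difference of 0.0902 under quantile normalization. Members higher in Keap1 null dishes went from 1 to 2 with normexp on the median spot signal (chosen after seeing the data), 2 with no filter and 0 with the filter on all 8 arrays, and those lower from 5 to 3 without scaling, where 12.4%, 11.1%, 27.0% and 11.4% of all targets were called. Members higher in Keap1 null allografts went from 9 to 14 with normexp (36.2% of all targets called) and 2 with the filter on all 8 arrays (44.8%). That filter, which tests fewer genes, also gave 1 rise and 8 falls in WT growth (3 and 15 otherwise), 1 rise in Keap1 null growth (9 otherwise) and 4 positive interactions (9 otherwise), beside 68.9%, 64.9% and 36.1% of all targets called in either direction. Falls went to 28 in WT and 19 in Keap1 null growth with median scaling, and to 14 in Keap1 null with quantile normalization, beside 84.2%, 80.8% and 65.7% of all targets called. The cause of the other changes was not tested. Leaving out 1 array at a time gave, higher and lower, 1 to 4 and 2 to 5 in dishes, 8 to 23 and 3 to 7 in allografts, 3 to 5 and 14 to 18 in WT growth, 9 to 20 and 7 to 14 in Keap1 null growth, and 9 to 20 and 3 to 7 for the interaction. With the replicate block, the interaction of Krt84 was lost (limma adjusted p = 0.0551) and no other member call was lost. Member probes above background on both arrays, 38, 41, 39 and 38 by group (WT dish, Keap1 null dish, WT allograft, Keap1 null allograft), came to 62, 62, 63 and 64 with the looser flag for positive and significant spots, and to 68 in Keap1 null allografts on at least 1 array. The planned normexp on mean spot signals was not run. Many skin genes lie near background, where differences are bounds at best.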
